A study of Rattus norvegicus with 12 samples.

Results

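A set of 9 genes for peptidases that cut vasoactive peptides were followed through the left atrial RNA-seq data of hypertensive and normotensive rats. Of 37246 genes listed, 21239 had read counts, and all 9 genes, chosen by symbol as enzymes known to process such peptides, were among them: Mme, Thop1, Nln, Ide, Anpep, Enpep, Lnpep, Dpp4 and Prcp. The study sequenced 12 libraries of the left atrium, 3 in each of 4 groups, from male rats that were 14 weeks old when purchased. Wistar-Kyoto rats (WKY group), a normotensive strain, and spontaneously hypertensive rats (SHR group) received saline at 7.5 ml/kg/day for 4 weeks. Further SHRs received for 4 weeks either valsartan at 30 mg/kg/day (ARB group), an angiotensin receptor blocker, or sacubitril/valsartan at 60 mg/kg/day (ARNI group), which adds a neprilysin inhibitor to valsartan.

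Vasoactive peptides such as the natriuretic peptides, angiotensins, bradykinin and endothelins act for a short time, because peptidases on cell surfaces, in the cytosol and in lysosomes cut them. Neprilysin, the product of Mme, removes natriuretic peptides and bradykinin, and it is the enzyme that sacubitril, once activated in the body, blocks. Other enzymes act in steps: aminopeptidase A and aminopeptidase N trim angiotensins from the N-terminus, prolylcarboxypeptidase trims them from the C-terminus, and dipeptidyl peptidase IV removes pairs of residues from peptides such as neuropeptide Y. RNA levels, which were measured here, do not give the activity of an enzyme or its inhibition by a drug.

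Several labels need to be known before the values are read. The titles of the 6 saline libraries name one strain and the library names in them the other, and groups were taken from the library names. If the title words held, each direction between SHR and WKY would turn. For the drug-treated rats the Wistar-Kyoto strain stands beside a hypertensive phenotype. Ndufa10l1 had 0 reads in all 3 WKY libraries and 48.7 to 132 CPM in the 9 others. Cd36, a fatty acid transporter gene, stood at 1445 to 1690 CPM in the WKY libraries and 62.7 to 315 CPM elsewhere. The 9 other libraries thus stood together, and the design of the study has 3 Wistar-Kyoto rats and 9 SHRs. That split matches the library names and not the title words. CPM are read counts set relative to the library's total (per 1e6 reads) after TMM scaling, which equalizes libraries on the bulk of their genes. Total counts ranged from 11252361 to 15823525 per library, and 3 reads, the most that a count of 0 allows, were worth 0.190 to 0.267 CPM before scaling, covering counting error only.

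The tissue label was checked with chamber markers of heart muscle. The atrial genes Myl7 and Sln were near absent in the 3 WKY libraries, where Myl7 was 0.948 to 16.6 CPM, and in ARNI replicate 2, where it was 10.7 CPM, whereas the other 8 libraries held 4528 to 11386 CPM. The ventricular gene Myl2 reached 3721 to 3946 CPM in the WKY libraries, 4591 in ARNI replicate 2, 2323 in SHR replicate 2 and 2716 in ARB replicate 3, and at most 23.1 in the remaining 6. Over the lists, the 6 atrial markers summed to 54.8 to 299 CPM in WKY and 28004 to 74077 in SHR, and the 5 ventricular markers to 45199 to 46192 in WKY and 357 to 9943 in SHR. The strain and the chamber markers therefore cannot be told apart between WKY and SHR. The 5 adipocyte markers summed to 329 CPM in ARB replicate 2 and 373 CPM in ARNI replicate 3, 16.3 CPM in WKY replicate 3, and at most 1.67 CPM in the other 9 libraries.

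To show the DNA in front of the 2 genes called between SHR and WKY, and of Enpep, whose call turned on 1 library, the 250 bases before the RefSeq starts of Mme, Anpep and Enpep are given, with each CG pair in capitals, 5′ to 3′ on the gene's strand. RefSeq's table for build GRCr8 gives 1 start a gene, matched all 9 genes, and is a later build than Rnor_6.0, which the submitters' processing notes name. The windows lie at chr2:149872247-149872496 (plus strand) for Mme, chr1:143195102-143195351 (minus strand) for Anpep and chr2:220526219-220526468 (minus strand) for Enpep.
Mme: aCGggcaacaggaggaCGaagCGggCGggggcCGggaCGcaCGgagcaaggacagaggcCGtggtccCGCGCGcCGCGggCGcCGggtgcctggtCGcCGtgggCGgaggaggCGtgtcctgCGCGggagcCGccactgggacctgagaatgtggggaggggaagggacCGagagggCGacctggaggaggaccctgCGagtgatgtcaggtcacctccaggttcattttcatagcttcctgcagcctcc
Anpep: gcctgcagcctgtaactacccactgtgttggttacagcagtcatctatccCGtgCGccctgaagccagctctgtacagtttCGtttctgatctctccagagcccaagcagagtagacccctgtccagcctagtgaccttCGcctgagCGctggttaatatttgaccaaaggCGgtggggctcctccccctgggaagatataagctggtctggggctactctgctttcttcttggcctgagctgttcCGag
Enpep: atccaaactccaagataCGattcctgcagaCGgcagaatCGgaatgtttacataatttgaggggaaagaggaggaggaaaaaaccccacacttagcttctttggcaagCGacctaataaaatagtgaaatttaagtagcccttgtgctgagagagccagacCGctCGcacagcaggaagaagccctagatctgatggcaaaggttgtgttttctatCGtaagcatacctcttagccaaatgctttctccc
The Mme window held 25 CG pairs, and the Anpep and Enpep windows held 7 each, against a median of 5 over 33469 windows of the same length. Over the 9 genes the number ran from 7 to 29. The letters TATAA, searched on both strands, were found only in the Anpep window among the 9, beginning 53 bases before the start, and occur in 24.0% of all windows. These matches describe the letters and not a binding site.

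Levels of the genes are shown first by library. CPM are not divided by gene length, so levels were compared within a gene and not between genes.

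**Figure D1:**
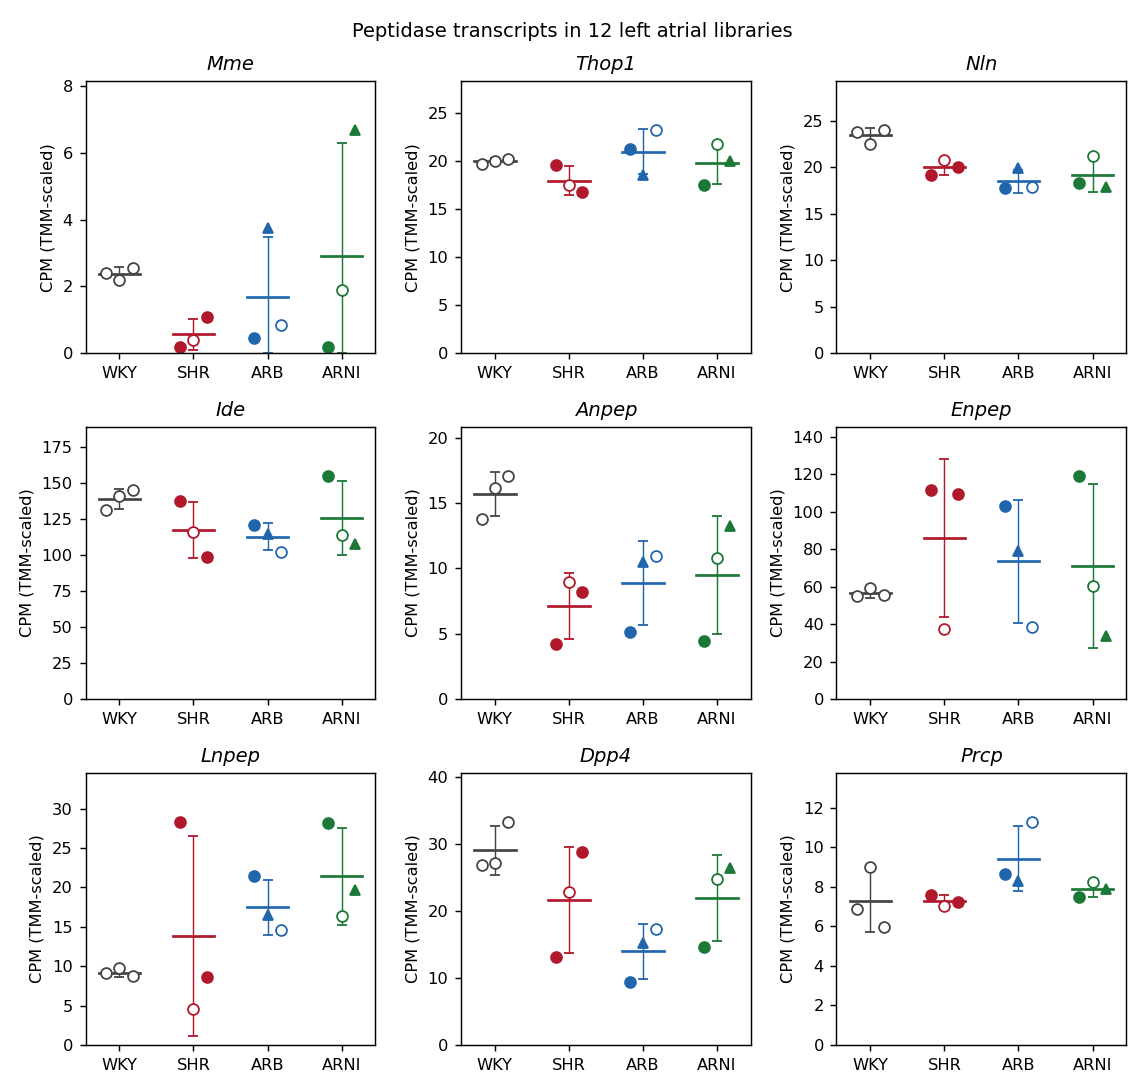
CPM of the 9 peptidase genes (vertical axis, linear from 0, TMM-scaled) in the 12 libraries by group (horizontal axis). Each symbol is 1 library in the order of its replicate number, lines are group means and bars are 1 SD over 3 libraries, with lower ends stopped at 0. Open symbols mark libraries with more than 1000 CPM of the ventricular gene Myl2, and triangles those with more than 100 CPM of summed adipocyte markers. Mme was highest in the triangles of the ARB and ARNI groups, at 3.75 and 6.67 CPM, and Anpep ran from 13.8 to 17.1 CPM in the WKY libraries.

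Neprilysin RNA was low in all libraries and varied the most. Mme stood at 2.40, 2.18 and 2.56 CPM in WKY replicates 1 to 3 (27, 24 and 27 reads) and at 0.193, 0.399 and 1.10 CPM in SHR replicates 1 to 3 (3, 5 and 18 reads). It was 0.456, 3.75 and 0.837 CPM in the ARB replicates (7, 60 and 10 reads) and 0.187, 1.91 and 6.67 CPM in the ARNI replicates (3, 22 and 103 reads). The 3 WKY libraries lay close together and above all SHR libraries, while ARB replicate 2 and ARNI replicate 3 exceeded every WKY library and ARNI replicate 1 was the lowest of the 12.

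Mme was 4.09-fold lower in SHR than in WKY (2.38 ± 0.190 CPM in WKY and 0.563 ± 0.474 CPM in SHR, SD, n = 3 each). The log2 fold change was -2.03 (SE 0.55), with an adjusted p of 0.0450 in the quasi-likelihood test of edgeR, adjusted over 13794 genes by the Benjamini-Hochberg method. Here and below a gene is called at an adjusted p of at most 0.05, and is a differentially expressed gene (DEG) if its absolute log2 fold change is also at least 1, the thresholds of the study. The Mme call was lost without any 1 of the 5 libraries other than SHR replicate 3 (log2 fold change -1.61 to -2.10, adjusted p of 0.0523 to 0.137), and without SHR replicate 3 the log2 fold change was -3.00 with an adjusted p of 0.0130. The log2 fold change was -2.23 with a block for the replicate number (edgeR adjusted p = 0.0757) and -2.03 without the low-count filter (0.0531). It was -2.04 in one fit of all 12 libraries (0.236) and -2.89 with a chamber marker score as covariate (0.459). The call held with DESeq2 (log2 fold change -2.08, DESeq2 adjusted p = 0.0122) and with RLE scaling (-2.05, edgeR adjusted p = 0.0429). In RNA of whole tissue, fewer cells of a type and less RNA per cell cannot be told apart.

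Within both treated groups Mme varied widely. The log2 fold change was 1.56 in ARB over SHR (95% interval -0.69 to 3.81), 2.33 in ARNI over SHR (-0.63 to 5.30) and 0.78 in ARNI over ARB (-2.15 to 3.72), and none was called (edgeR adjusted p of 0.993 to 0.9999). The 2 libraries above the WKY range, ARB replicate 2 and ARNI replicate 3, were those with adipocyte markers. Some other lists were also highest in ARNI replicate 3. The 4 smooth muscle markers summed to 652 CPM in ARNI replicate 3 and at most 218 CPM elsewhere, with 166 CPM in ARB replicate 2. The 4 Schwann or neural markers summed to 131 CPM in ARNI replicate 3 and 93.7 CPM in ARB replicate 2, against at most 83.9 CPM elsewhere. Mpo, a neutrophil marker singled out after its values were seen, was 5.83 CPM in ARNI replicate 3 and 5.38 CPM in ARB replicate 2. Elsewhere Mpo was at most 0.284 CPM. The other neutrophil markers, S100a8, S100a9, Cxcr2 and Csf3r, were each highest in another library, S100a9 at 4.18 CPM in ARB replicate 3. The part of the cell types of these lists in the Mme levels was not tested. Without ARB replicate 2 the first value was 0.14, and without ARNI replicate 3 the second was 0.83 and the third -0.72. With both left out, a choice made after the data were seen, ARNI over ARB was 0.68. The genes whose log2 CPM followed Mme most closely over the 12 libraries, among 13543 genes with a mean of at least 1 CPM, were Irak3, Irs3 and Gfpt2 (Pearson r of 0.93, 0.93 and 0.92), a description over libraries that share strain, chamber markers and adipocyte markers.

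The other 3 zinc endopeptidases, which open peptides inside the chain, were nearly level. Thop1 encodes thimet oligopeptidase, a mainly cytosolic enzyme that cuts short peptides such as bradykinin. Thop1 RNA was 19.8, 20.1 and 20.3 CPM in WKY, 19.7, 17.5 and 16.8 CPM in SHR, 21.3, 18.6 and 23.3 CPM in ARB and 17.5, 21.9 and 20.0 CPM in ARNI. All SHR libraries were just below the WKY range, by a log2 fold change of -0.15 (SE 0.10, edgeR adjusted p = 0.309), and the treated groups overlapped with SHR.

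Nln encodes neurolysin, a relative of thimet oligopeptidase that cuts neurotensin and other short peptides. Nln RNA was 23.8, 22.5 and 24.0 CPM in WKY and 19.2, 20.8 and 20.0 CPM in SHR. In the treated rats it was 17.7, 19.9 and 17.8 CPM with ARB and 18.3, 21.3 and 17.9 CPM with ARNI. All 9 libraries of the SHR, ARB and ARNI groups lay below all 3 WKY libraries, yet the difference was small and SHR over WKY was not called (log2 fold change -0.23, SE 0.09, edgeR adjusted p = 0.115). Nln had the narrowest range of the 9 genes over the 12 libraries, 0.43 on the log2 scale. Its counts, like those of Lnpep, were not all whole, so some of its reads were shared with other genes by the authors' counting.

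Ide encodes insulin-degrading enzyme, which also cuts atrial natriuretic peptide. Its RNA was 131, 141 and 145 CPM in WKY, 137, 116 and 98.9 CPM in SHR, 121, 115 and 102 CPM in ARB and 155, 114 and 108 CPM in ARNI. SHR replicate 1 and ARNI replicate 1 reached or passed the WKY levels and the other 7 libraries were below them. SHR over WKY was -0.24 on the log2 scale (SE 0.14, edgeR adjusted p = 0.226).

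Of the zinc aminopeptidases, which remove residues from the N-terminus, Anpep fell in SHR and Enpep split the SHR libraries. Anpep encodes aminopeptidase N, also known as CD13, which takes off neutral residues and acts late in the breakdown of angiotensins. Anpep RNA was 13.8, 16.2 and 17.1 CPM in WKY and 4.24, 8.93 and 8.17 CPM in SHR. It was 5.15, 10.5 and 11.0 CPM in ARB and 4.48, 10.8 and 13.2 CPM in ARNI. All 9 libraries of the SHR, ARB and ARNI groups were below the 3 WKY libraries. Replicate 1 was the lowest in each of those groups, although replicate numbers give no order.

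Anpep was 2.204-fold lower in SHR than in WKY (15.7 ± 1.69 CPM in WKY and 7.11 ± 2.52 CPM in SHR, SD, n = 3 each). The log2 fold change was -1.14 (SE 0.28, edgeR adjusted p = 0.0352), which made it a DEG. The call was lost without any 1 of the WKY libraries (log2 fold change -1.08 to -1.23, adjusted p of 0.0910 to 0.119), fits in which the number of genes called fell from 2837 to between 415 and 496, and it held without any 1 of the SHR libraries (0.0108 to 0.0480). Without SHR replicate 1 the log2 fold change was -0.87. In one fit of all 12 libraries it was -1.14 (edgeR adjusted p = 0.105) and with the chamber marker covariate -0.40 (0.770). The call held with DESeq2 (DESeq2 adjusted p = 0.00206). It also held in edgeR with RLE scaling (adjusted p = 0.0315), without the low-count filter (0.0353) and with the replicate block (0.0476). ARB over SHR was 0.31 (95% interval -0.61 to 1.24) and ARNI over SHR 0.41 (-0.74 to 1.56), neither called. The closest genes by Pearson r of log2 CPM over 12 libraries were Ntng2 (0.98), Tnfrsf11a (0.95) and Entpd2 (0.95).

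Pericytes and endothelium are known to carry aminopeptidases on their surface, so their marker lists were set beside these values. The 6 pericyte markers summed to 624 to 693 CPM in WKY and 511 to 563 CPM in SHR, with 2 of the 6 called lower, and the 8 endothelial markers to 1175 to 1239 CPM and 976 to 1468 CPM, with 1 of the 8 called lower, beside 8.26% of all genes called lower. Every defining marker of both lists had reads in every library. Abcc9, the largest pericyte marker, was 306 to 324 CPM in WKY and 278 to 440 CPM in SHR. Vwf, the largest endothelial marker, was 292 to 420 and 329 to 647 CPM. Rgs5 was 71.2 to 90.1 and 10.1 to 47.7 CPM, and Notch3 57.8 to 79.5 and 9.64 to 38.3 CPM. Kcnj8, Cspg4, Cdh5 and Kdr were also lower in every SHR library than in WKY, and the other markers overlapped. Of all genes tested, 47.4% did not overlap. Aminopeptidase N is also found on myeloid cells: the 7 macrophage markers summed to 151 to 213 CPM in WKY and 77.2 to 202 CPM in SHR, with 2 called lower, and the 5 neutrophil markers to 3.83 to 5.498 and 1.86 to 3.59 CPM, with 0 of the 2 tested called. The 7 epicardial or mesothelial markers went the other way, from 65.7 to 87.6 CPM in WKY to 226 to 416 CPM in SHR, with 6 called higher beside 12.3% of all genes. The 8 fibroblast markers summed to 2180 to 2333 CPM in WKY and 1497 to 4620 CPM in SHR, with 0 called. The 4 smooth muscle markers summed to 159 to 218 CPM and 97.2 to 142 CPM, with 1 called lower. The 4 mast cell markers summed to 27.96 to 31.6 CPM and 7.45 to 24.6 CPM, with 0 called. The part of these cells in the Mme and Anpep differences was not tested.

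Enpep encodes aminopeptidase A, which removes the acidic first residue of angiotensin II. Enpep RNA was 55.0, 59.1 and 55.4 CPM in WKY and 111, 37.4 and 110 CPM in SHR. The treated rats had 103, 79.1 and 38.3 CPM with ARB and 119, 60.4 and 33.8 CPM with ARNI. SHR replicates 1 and 3 held nearly the same level, far above WKY, and SHR replicate 2, the SHR library with ventricular Myl2, lay below all WKY libraries.

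With all 3 SHR libraries Enpep was not called (log2 fold change 0.61, SE 0.38, edgeR adjusted p = 0.273). Without SHR replicate 2 it was 0.98 (SE 0.08, edgeR adjusted p = 0.000397). That fit set only SHR libraries without ventricular Myl2 against WKY, and 5310 of 14035 genes were called in it. Among the SHR, ARB and ARNI libraries, the 3 with Myl2 above 1000 CPM had 37.4, 38.3 and 60.4 CPM of Enpep. The other 6 had 33.8 to 119 CPM, of which only ARNI replicate 3, at 33.8 CPM, was below 79.1 CPM. ARB over SHR was -0.23 (95% interval -1.42 to 0.96) and ARNI over SHR -0.29 (-1.69 to 1.12). Il27ra, Hmcn1 and Rps6ka2 followed Enpep most closely over the 12 libraries (Pearson r of 0.96, 0.95 and 0.95).

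Lnpep encodes insulin-regulated aminopeptidase, or oxytocinase, a vesicle enzyme that cuts oxytocin and vasopressin. Lnpep RNA was 9.08, 9.72 and 8.72 CPM in WKY and 28.3, 4.54 and 8.66 CPM in SHR. It was 21.4, 16.5 and 14.6 CPM in ARB and 28.2, 16.3 and 19.7 CPM in ARNI. The SHR libraries straddled the WKY range, one far above and the others below it, and all 6 treated libraries were above it. SHR over WKY was 0.60 (SE 0.62, edgeR adjusted p = 0.497) and turned to -0.46 without SHR replicate 1. ARB over SHR was 0.33 (95% interval -1.14 to 1.79) and ARNI over SHR 0.63 (-0.95 to 2.21), and neither treated group was compared with WKY by a test.

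The serine peptidases Dpp4 and Prcp cut next to proline. Dpp4 encodes dipeptidyl peptidase IV, the target of the gliptins, which trims incretins, neuropeptide Y and the chemokine Cxcl12. Dpp4 RNA was 26.8, 27.1 and 33.3 CPM in WKY and 13.1, 22.7 and 28.8 CPM in SHR. It was 9.32, 15.1 and 17.3 CPM in ARB and 14.6, 24.7 and 26.3 CPM in ARNI. Only SHR replicate 3 of the 9 SHR, ARB and ARNI libraries reached the WKY range. SHR over WKY was -0.43 (SE 0.28, edgeR adjusted p = 0.286), ARB over SHR was -0.64 (95% interval -1.45 to 0.17) and ARNI over ARB was 0.67 (-0.10 to 1.43), none called. Tfdp2, Ace and Bcar3 followed Dpp4 most closely (Pearson r of 0.96, 0.96 and 0.95 over 12 libraries), and Ace, which encodes the angiotensin-converting enzyme, ran from 7.76 CPM in ARB replicate 1 to 24.1 CPM in WKY replicate 3.

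Prcp encodes prolylcarboxypeptidase, a lysosomal enzyme that takes the last residue off angiotensin II. Prcp RNA was 6.86, 8.998 and 5.97 CPM in WKY, 7.58, 7.02 and 7.26 CPM in SHR, 8.67, 8.32 and 11.3 CPM in ARB and 7.46, 8.24 and 7.91 CPM in ARNI. The SHR libraries lay within the WKY range, and all ARB libraries were above all SHR and ARNI libraries. SHR over WKY was 0.00 (95% interval -0.44 to 0.45, edgeR adjusted p = 0.988), ARB over SHR was 0.36 (-0.07 to 0.79) and ARNI over ARB was -0.24 (-0.70 to 0.21), none called.

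By order of group means, Mme stood highest in ARNI and then WKY, ARB and SHR, whereas Enpep ran from SHR through ARB and ARNI to WKY. For Anpep the order was WKY, ARNI, ARB and SHR, and for Lnpep it was ARNI, ARB, SHR and WKY. Of the neighbours that were compared, none differed beyond the spread of the libraries, and the treated groups were not tested against WKY.

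**Figure D2:**
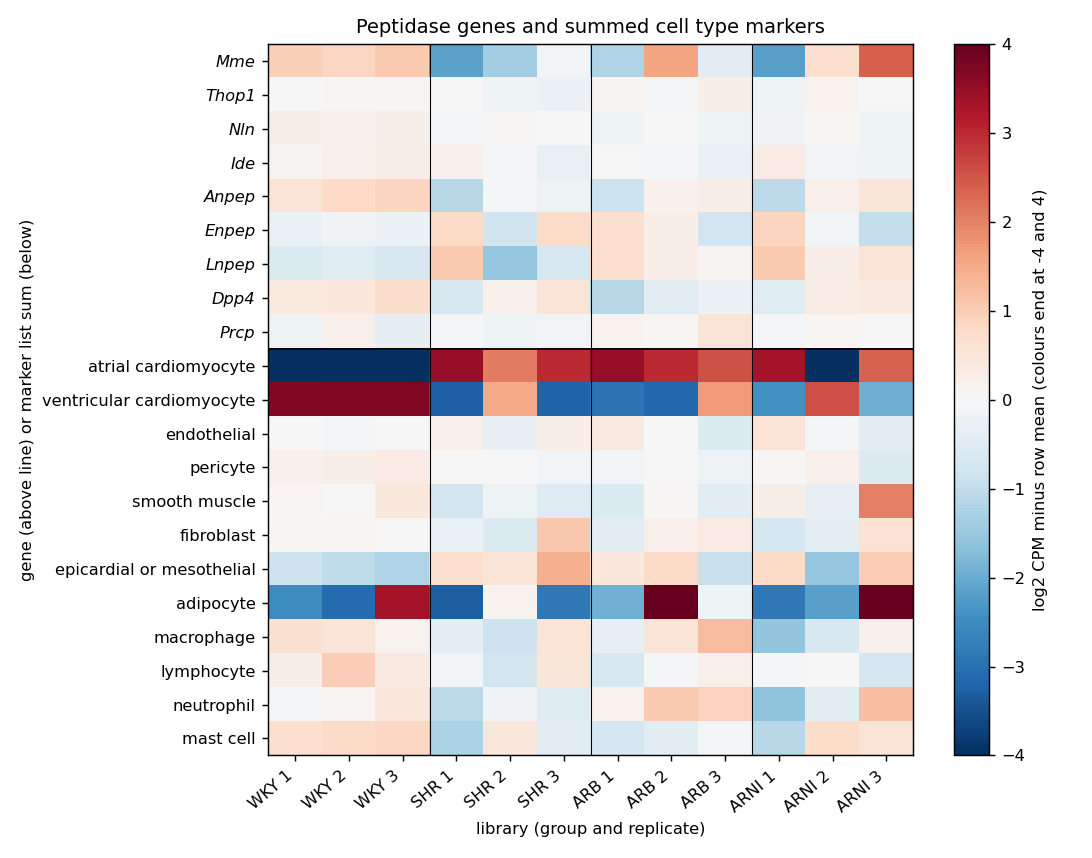
Each cell is the log2 CPM of a gene, or of a summed marker list, in 1 library minus the mean of its row, with 0.1 CPM added before the logarithm and colours ending at -4 and 4. Rows above the line are the 9 peptidase genes and rows below are 12 cell type marker lists and columns are the 12 libraries. Mme is blue or near white in the SHR libraries and darkest red in ARNI replicate 3, the column in which the adipocyte row reaches 373 CPM.

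The spread over the 12 libraries separated the genes into variable and level ones. The highest and lowest libraries differed by 4.70 on the log2 scale for Mme, more than for 96.3% of 14452 genes, and by 2.62 for Lnpep, more than for 86.6%. The ranges of Anpep, Dpp4 and Enpep were 1.99, 1.83 and 1.81, and the median over all genes was 1.05. Prcp, Ide, Thop1 and Nln had ranges of 0.91, 0.65, 0.46 and 0.43. Over the same libraries Mme and Anpep varied together (Pearson r of 0.84), as did Anpep and Dpp4 (0.79), while Anpep and Enpep varied in opposite directions (-0.71). These are descriptions over libraries that share strain and chamber markers, and they carry no test.

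Between SHR and WKY, 2 of the 9 genes were called, Mme and Anpep, both lower and both DEGs, which is 22.2% beside 20.6% of all 13794 genes tested. Lower calls made up 8.26% of all genes and DEGs 8.89%, with 5.54% higher and 3.35% lower. At an unadjusted p under 0.05 stood 3 of the 9 genes (Mme, Nln and Anpep) and 39.4% of all genes. The groups did not overlap for 4 of the 9 genes (Mme, Thop1, Nln and Anpep) and for 47.4% of all genes. The median log2 fold change was -0.23 over the 9 genes and 0.01 over all genes. All 9 genes passed the filter on low counts in all 4 comparisons. The share called was thus close to that of all genes, and it changed with the libraries used: 0 of the 9 were called without any 1 of the WKY libraries, when 415 to 496 genes were called in all.

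**Figure D3:**
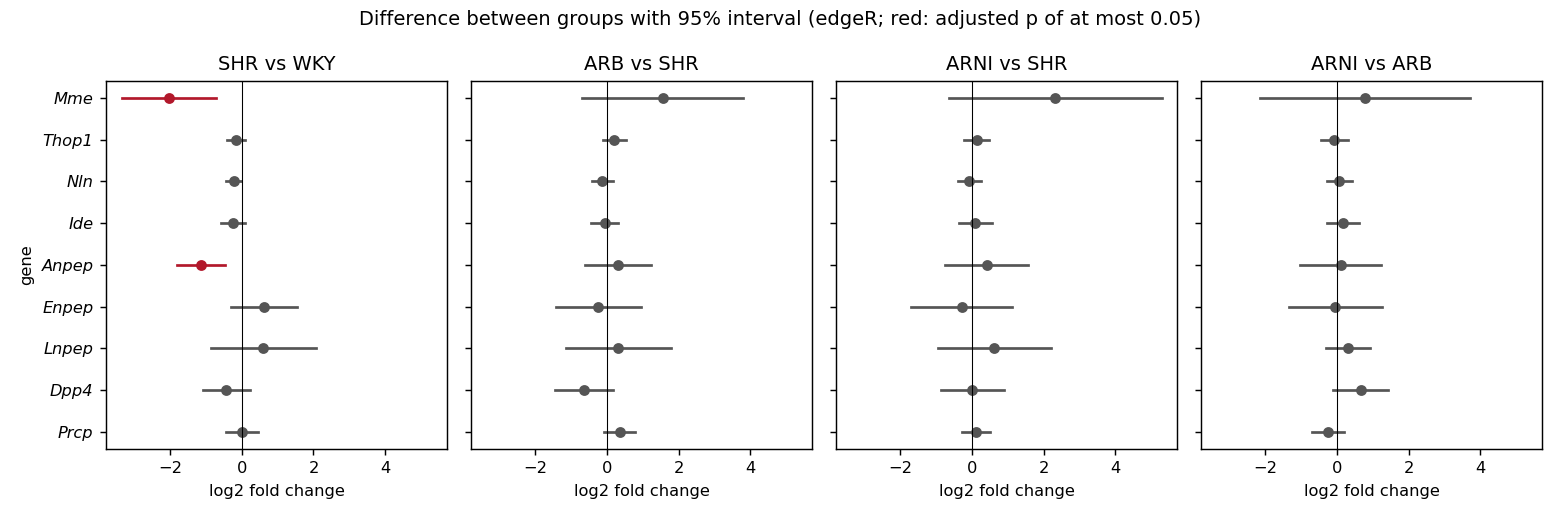
Log2 fold change (horizontal axis) of the 9 genes (vertical axis) in 4 comparisons, with 95% intervals from edgeR on the 6 libraries of each pair, red where the adjusted p was at most 0.05. Mme at -2.03 and Anpep at -1.14 between SHR and WKY are the 2 red points.

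Neither drug was accompanied by a called change in these genes. ARB over SHR and ARNI over SHR share the SHR libraries, so their values are given side by side and not as a pattern. In ARB over SHR, ARNI over SHR and ARNI over ARB, edgeR called 0 of 13979, 0 of 13955 and 0 of 13948 genes, a share of 0% each. At an unadjusted p under 0.05 the counts were 225, 227 and 539 genes, 1.61%, 1.63% and 3.86%, and 0 of the 9 peptidases in each. DESeq2, as an alternative, called 3, 9 and 23 genes and 0 of the 9. The groups did not overlap for 1 gene in ARB over SHR (Prcp, beside 6.12% of all genes), for 0 in ARNI over SHR (6.11%) and for 1 in ARNI over ARB (Prcp, 10.5%).

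The intervals differed in width between the genes. For Thop1, Nln and Ide the 95% intervals in ARNI over SHR ran from -0.22 to 0.49, from -0.39 to 0.26 and from -0.37 to 0.56, so changes above 1 on the log2 scale lay outside them. For Mme, Lnpep and Enpep the intervals were wider, and a doubling and a halving both lay within that of Enpep.

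Other enzymes that act on small peptides were examined as a list of 41 genes, of which 40 were in the table and 30 were tested. Between SHR and WKY 7 of the 30 were called (23.3%, beside 20.6% of all genes), 3 higher and 4 lower. DEGs were 2 of the 30 (beside 8.89% of all genes). The groups did not overlap for 17 of the 30, beside 47.4% of all genes. Xpnpep2 encodes the membrane aminopeptidase P, which removes the first residue of bradykinin. It was 8.46, 7.63 and 14.2 CPM in WKY and 0.90, 2.63 and 1.28 CPM in SHR, with no overlap. Its log2 fold change was -2.67 (SE 0.44, edgeR adjusted p = 0.0133), and the ARB and ARNI libraries held 0.746 to 3.38 CPM.

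Trhde, which encodes an enzyme that inactivates thyrotropin-releasing hormone, was 1.25, 1.91 and 1.90 CPM in WKY and 3.28, 4.15 and 2.87 CPM in SHR. The groups did not overlap, and the log2 fold change was 1.02 (SE 0.28, edgeR adjusted p = 0.0452). The other 5 called genes, named after their values were seen, changed by less than 1 on the log2 scale: Cpd and Dpp8 were higher, and Prep, Lap3 and Tpp2 lower. Without SHR replicate 2, 15 related genes were called, when 5310 of 14035 genes were called in all, and without any 1 of the WKY libraries 0. In the treatment comparisons edgeR called 0 of the related genes, with 0 at an unadjusted p under 0.05 in ARB over SHR, in ARNI over SHR and in ARNI over ARB.

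**Figure D4:**
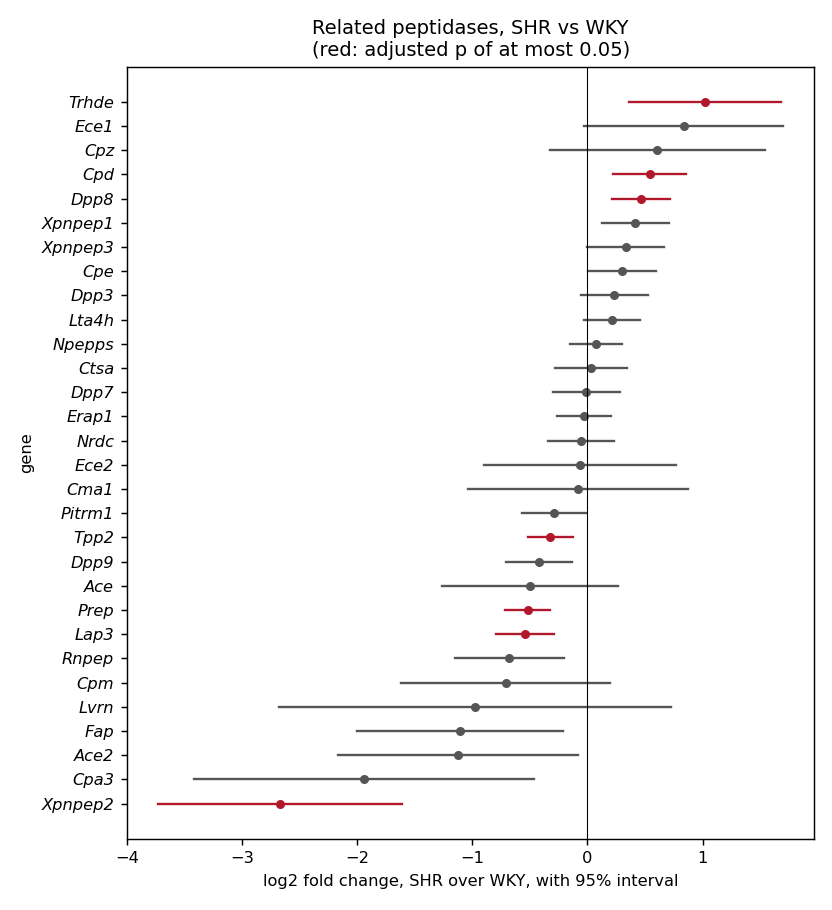
Log2 fold change of SHR over WKY (horizontal axis) with 95% intervals for the 30 related peptidase genes tested (vertical axis), ordered by size, red where the edgeR adjusted p was at most 0.05. The 7 red genes run from Xpnpep2 at -2.67 to Trhde at 1.02.

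Peptides that these enzymes cut, and their receptors, formed a list of 43 genes, of which 28 were tested between SHR and WKY. Of these, 11 were called (39.3%, beside 20.6% of all genes), 5 higher and 6 lower. DEGs were 9 (beside 8.89% of all genes), of which the 8 largest are given. The list was chosen with earlier results of these data known and holds an atrial marker, so no conclusion is drawn from its share. Nppa, the gene of atrial natriuretic peptide and itself one of the atrial markers, was 33.9, 135 and 295 CPM in WKY and 51531, 18147 and 34591 CPM in SHR. In ARNI replicate 2, the treated library without atrial markers, it was 45.0 CPM. Its log2 fold change was 7.82 (SE 1.02, edgeR adjusted p = 0.00703).

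Npr3, the clearance receptor that removes natriuretic peptides by a route apart from neprilysin, was 48.8 to 85.2 CPM in WKY and 167 to 553 CPM in SHR (log2 fold change 2.56, edgeR adjusted p = 0.0181). Edn1, which encodes endothelin, was higher by 1.62, Adm, which encodes adrenomedullin, by 1.49 and Ednrb, an endothelin receptor gene, by 1.28 on the log2 scale. Penk, the gene of the enkephalins, was lower, from 69.6 to 219 CPM in WKY to 2.18 to 12.3 CPM in SHR (log2 fold change -4.13, edgeR adjusted p = 0.0156). Apln, which encodes apelin, had a log2 fold change of -1.70 and Cxcr4, the receptor gene of the Dpp4 substrate Cxcl12, one of -1.15. The libraries with ventricular markers moved with several of these genes. Npr3 was 167, 68.1 and 59.7 CPM in SHR replicate 2, ARB replicate 3 and ARNI replicate 2. It was 306 to 682 CPM in the other 6 SHR, ARB and ARNI libraries. The part of the chamber markers in the differences was not tested.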

How the data were processed

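RNA of 12 left atrial libraries was sequenced as single reads of 50 bases, per the labels. Reads were filtered by the authors with SOAPnuke and aligned with HISAT2 2.0.4 and Bowtie2 2.2.5, and the deposited values are expected counts of RSEM for each gene, not normalized; the submitters' processing notes name the build Rnor_6.0, and the annotation is not given in the sources used here. The authors' own comparison of SHR over WKY, deposited as a log2 fold change and a p-value, was not used. The 16007 genes listed without counts were left out.

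Expected counts were rounded to whole numbers, low genes were removed with filterByExpr, and libraries were scaled by TMM. Pairs of groups were compared on their 6 libraries with edgeR 4.0.16 (R 4.3.3), quasi-likelihood test and Benjamini-Hochberg adjustment over all genes tested. Standard errors were derived from the F statistic. Correlations used log2 CPM with a prior count of 1. Python 3.11.15 (pandas 2.3.3, matplotlib 3.10.9) was used for the rest. With unscaled libraries the median of SHR over WKY was 0.15 on the log2 scale. Alternatives were DESeq2 1.42.0, RLE scaling, no filter, one fit of 12 libraries, a replicate block, a chamber marker score as covariate, and leaving out libraries.

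Libraries were grouped by library name. Same-numbered SHR and ARNI libraries deviated together (correlations of 0.51, 0.46 and 0.19). Between SHR and WKY these correlations were 0.026, -0.047 and -0.075. They were 0.42, -0.24 and -0.25 between ARB and SHR, and 0.52, -0.445 and -0.15 between ARNI and ARB. SHR replicate 2 and ARNI replicate 2 also shared ventricular Myl2 (2323 and 4591 CPM). The main fits treated the libraries as unpaired in every comparison, ARNI over SHR included. No source ties same-numbered rats to each other. Simulated counts at set dispersions served to check the procedure. For SHR against WKY, 98.5% of genes changed by 1.5 on the log2 scale were recovered at a dispersion of 0.02, among 13643 genes. At a dispersion of 0.1 the share was 59.7%, among 13634 genes. The spread of the real replicates was unequal between these groups. Pairs of WKY libraries differed by a chi-square per degree of freedom of 4.03 to 6.36, and SHR pairs by 42.7 to 105.7. The shares therefore hold for the simulated dispersions and are not recovery rates for these libraries.

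All 9 members are named. Of the related peptidases and of the substrates and receptors, the DEGs between SHR and WKY are named (at most 8 a list), and the 3 closest genes were found for each member. The members and lists were chosen with earlier results of these data known.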

Additional observations from a re-analysis of the deposited data

How the results depend on the processing

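Between SHR and WKY, the 2 called peptidases became 1 without the low-count filter and 1 with the replicate block, and 0 in one fit of all 12 libraries and 0 with the chamber marker covariate. The 7 related peptidases became 11 with DESeq2, 3 in the 12-library fit, 1 with the replicate block, 0 with the covariate and 15 without the libraries with ventricular markers (SHR replicate 2). The 2837 genes called became 1178, 1030, 127 and 5310 under those last 4 settings. Leaving out 1 library gave 0 to 2 peptidases, 0 to 15 related peptidases and 415 to 5310 genes. The covariate was extrapolated, since its values in WKY and SHR do not overlap. The block changed no call of the 9 peptidases other than that of Mme (edgeR adjusted p of 0.0757), and no source ties same-numbered libraries to each other.

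In the treatment comparisons DESeq2 called 3 genes in ARB over SHR, 9 in ARNI over SHR and 23 in ARNI over ARB, and the covariate 1 gene in each of the last 2, with 0 peptidases in each.

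Reversed log2 fold changes, none of them called, were as follows. In SHR over WKY with the covariate, Thop1 was 0.062, Enpep -0.64, Lnpep -0.70 and Dpp4 0.11, and Prcp was -0.00816 with DESeq2 and -0.00981 with RLE scaling. Without the libraries with ventricular markers, Ide was 0.000896 in ARB over SHR, Dpp4 -0.048 in ARNI over SHR and Nln -0.072 in ARNI over ARB. The covariate gave 0.082 for Enpep and -0.11 for Dpp4 in ARNI over SHR, and -0.080 for Anpep and 0.30 for Enpep in ARNI over ARB. Without both libraries with adipocyte markers, chosen after the data were seen, Anpep was -0.065 and Enpep 0.35 in ARNI over ARB. Leaving out 1 library reversed SHR over WKY for Lnpep (-0.46 to 1.02) and Prcp (-0.12 to 0.18). It reversed ARB over SHR for Ide (-0.17 to 0.066), Enpep (-0.59 to 0.079) and Lnpep (-0.084 to 1.39), and ARNI over SHR for Ide (-0.075 to 0.22), Enpep (-0.87 to 0.051) and Dpp4 (-0.25 to 0.29). In ARNI over ARB it reversed Mme (-0.72 to 2.197), Thop1 (-0.16 to 0.011), Nln (-0.031 to 0.13), Ide (-0.00968 to 0.27), Anpep (-0.20 to 0.45) and Enpep (-0.63 to 0.30). The causes were not tested. Depth limits Mme, whose lowest libraries held 3 reads.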
